A study of Mus musculus with 45 samples.

Results

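The gene set described here is made of 9 genes that carry lipid through the brain: Apoe, Apod and Clu, which are lipoprotein components, Abca1, Abca7 and Abcg1, which export lipid from cells, the lipoprotein receptor Lrp1, the lipase Lpl and the cholesterol-esterifying enzyme Soat1. They were chosen by name, with earlier results of these data known. All 9 are among the 15897 genes of the hippocampal expression table, each as 1 gene entry. The table covers 45 female C57Bl/6J mice, each a separate animal, in 8 groups of genotype and diet. AwTw are wild-type littermates (6 on STD and 6 on TWD), AwT+ carry human Tau P301L driven by the CaMKII promoter (6 and 6), A+Tw carry the APPswe/PS1dE9 transgene driven by the mouse PrP promoter (5 and 6), and A+T+, bred by crossing the transgenic lines, carry both (4 and 6). STD is standard rodent chow and TWD a typical Western diet rich in fat, cholesterol and sucrose. The mice were on their diet from 7 to 13 months of age.

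In the brain, cholesterol is made locally, since lipoproteins of the blood do not cross the blood-brain barrier. Astrocytes, and microglia in disease, secrete ApoE particles that ABC transporters load with cholesterol and phospholipid, and neurons and glia take the particles up through receptors of the lipoprotein receptor family. Cholesterol in excess is esterified for storage in lipid droplets, or oxidised to oxysterols that activate the nuclear receptor LXR, and LXR in turn induces APOE, ABCA1 and ABCG1. APOE, CLU and ABCA7 are also risk genes for Alzheimer's disease.

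Values are variance-stabilised read counts on a log2 scale, from which the batch difference had been removed, and the number of reads per mouse is not known from them. Their median lay between 8.05 and 8.31 in every mouse. App was higher in A+ than in Aw mice by 0.90 ± 0.049 (SE; adjusted p = 3.89e-18) and Prnp, whose promoter drives the transgene, by 1.11 ± 0.045 (SE; adjusted p = 5e-22), with no overlap between the 24 Aw and the 21 A+ mice. Mapt did not separate T+ from Tw mice (0.059 ± 0.055, adjusted p = 1.00), so the T+ labels could not be checked by it. The lowest value of the 6 markers of hippocampal principal cells in any mouse was 7.11, where the lowest of the whole table was below 2. The value that a gene without reads takes is not known on this scale. Mice within a group differed most along 1 shared pattern, the first principal component of the residuals, which took 41.3% of the residual variance. The score of each mouse on this pattern is called the between-mouse score here. It was taken from the values themselves, not from the residuals, so it can also differ between groups. It is computed from all genes, so the 9 genes contribute to it, and 2 TWD mice, replicate 3 of AwTw and replicate 1 of A+T+, stood apart at its low end (-2.30 and -2.42, against -1.67 for the next mouse).

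Against the genotypes, 3 of the 9 genes passed the threshold. Lpl, Apoe and Clu were higher in A+ than in Aw mice, by 1.24-fold, 1.23-fold and 1.19-fold, when the A+ groups on both diets were set against the Aw groups. None of the 9 genes was lower. Of all 15897 genes, 3.77% passed in this comparison, 3.11% as higher and 0.661% as lower. Against the diet, 4 of the 9 passed: Apod, Lrp1 and Apoe were higher on TWD, by 1.30-fold, 1.20-fold and 1.18-fold, and Soat1 was lower, at 0.766 of its level on STD, with folds taken from the transformed log2 scale. Here 29.4% of all genes passed, 16% as higher and 13.4% as lower, and 4 of 9 genes is read against that share. The median difference of the 9 genes was 0.13 for A+ and 0.039 for TWD on the log2 scale, against -0.017 and -0.0014 over all genes. All tests were two-sided limma tests, from a model with the 8 groups and batch or, for the diet difference over all genotypes, from a model in which genotype, diet and batch add up. Adjusted p is Benjamini-Hochberg over the 15897 genes, with a threshold of 0.05, and sets each difference against the spread between the mice of this study. The 3 A+ calls were also made without the 2 mice at the low end of the between-mouse score. None of the 4 diet calls was, with Apod at 0.34 (adjusted p = 0.0666), Lrp1 at 0.20 (0.0742), Soat1 at -0.36 (0.0757) and Apoe at 0.17 (0.130).

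**Figure D1:**
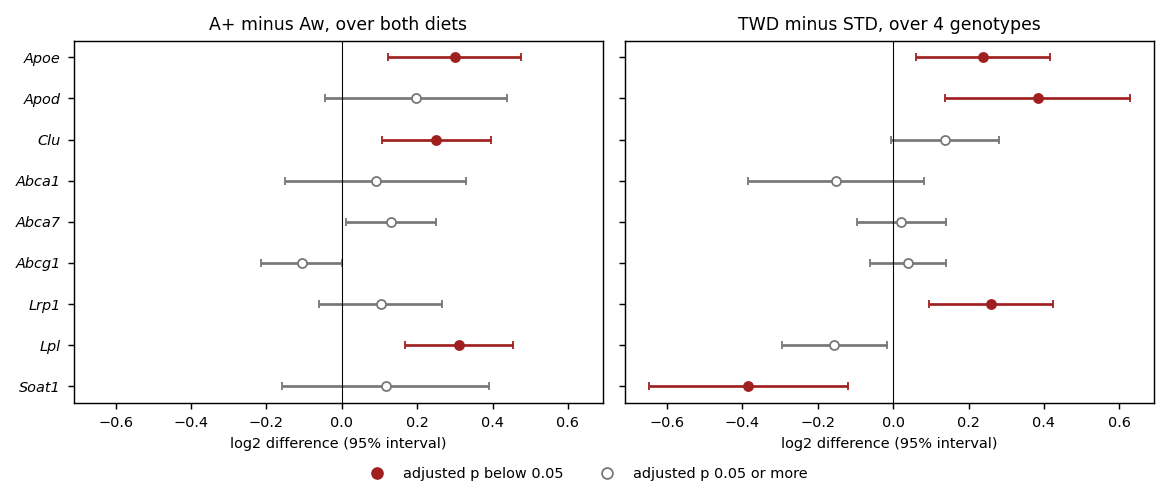
Log2 differences of the 9 genes with 95% intervals (x axis) for A+ against Aw mice on the left and TWD against STD mice on the right, with filled points where the adjusted p was below 0.05. Lpl, Apoe and Clu are filled on the left, and Apoe, Apod, Lrp1 and, on the negative side, Soat1 on the right.

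Promoter sequences were read for the genes that passed for diet, since 3 of them were higher and 1 lower in the same mice, and for Abca1, whose window held the most of the motifs searched. The RefSeq promoter table used here (GRCm38.p6) matched 6 of the 9 genes. Each sequence below is the 250 bases before the start, 5′ to 3′ on the strand of the gene, with motif matches in capitals. They lie at chr7:19699189-19699438 on the minus strand (Apoe, the most upstream of 3 starts), chr16:31314809-31315058 on the minus strand (Apod), chr10:127621149-127621398 on the minus strand (Lrp1), chr1:156474329-156474578 on the minus strand (Soat1) and chr4:53159896-53160145 on the minus strand (Abca1).
Apoe: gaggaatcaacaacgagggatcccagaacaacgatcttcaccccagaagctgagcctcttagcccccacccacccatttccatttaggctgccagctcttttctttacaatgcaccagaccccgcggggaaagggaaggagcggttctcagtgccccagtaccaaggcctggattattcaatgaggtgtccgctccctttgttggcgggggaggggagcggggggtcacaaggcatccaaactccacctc
Apod: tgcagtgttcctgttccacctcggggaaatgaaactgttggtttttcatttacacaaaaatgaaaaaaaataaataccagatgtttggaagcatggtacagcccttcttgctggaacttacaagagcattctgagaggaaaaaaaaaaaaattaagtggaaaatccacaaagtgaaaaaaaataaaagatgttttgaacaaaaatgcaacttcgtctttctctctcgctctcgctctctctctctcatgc
Lrp1: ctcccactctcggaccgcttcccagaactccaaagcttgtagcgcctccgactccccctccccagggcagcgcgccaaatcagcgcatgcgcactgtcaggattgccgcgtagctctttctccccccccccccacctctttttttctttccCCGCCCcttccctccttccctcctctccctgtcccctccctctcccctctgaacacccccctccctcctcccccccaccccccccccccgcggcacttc
Soat1: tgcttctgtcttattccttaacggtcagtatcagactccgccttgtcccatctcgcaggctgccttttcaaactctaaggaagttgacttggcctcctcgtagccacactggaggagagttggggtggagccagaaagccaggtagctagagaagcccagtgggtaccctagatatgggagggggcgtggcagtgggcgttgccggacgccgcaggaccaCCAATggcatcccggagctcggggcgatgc
Abca1: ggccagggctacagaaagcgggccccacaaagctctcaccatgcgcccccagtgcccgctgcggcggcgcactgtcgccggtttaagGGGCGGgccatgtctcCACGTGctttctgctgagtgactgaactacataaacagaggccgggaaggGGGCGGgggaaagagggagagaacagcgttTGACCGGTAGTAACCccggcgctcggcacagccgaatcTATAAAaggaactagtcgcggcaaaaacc
The motifs were the TATA box TATAAA, the GC box GGGCGG, the CCAAT box, the E-box CACGTG, the nuclear receptor half-site AGGTCA, the direct repeat of that half-site with 4 bases between the copies, and a looser repeat, GGTTA and GGTCA with 5 bases between them, which was added after the Abca1 window had been read. Both strands were searched. The Abca1 window held a TATA box 29 to 24 bases before the start, 2 GC boxes, an E-box and the looser repeat on the opposite strand, 67 to 53 bases before the start. The looser repeat, whose letters were taken from this window, was in 0.0457% of the 32851 windows of the same length, the E-box in 6.02%, the TATA box in 12.4% and the GC box in 32.7%. Lrp1 held 1 GC box on the opposite strand and Soat1 a CCAAT box, which 33.8% of windows hold. The Apoe and Apod windows held none of the 7 motifs, of which the half-site was in 14.0% of windows and its strict repeat in 0.0152%. None of the 5 printed windows held the strict repeat, and binding of LXR to either repeat was not tested. The GC content was 36.4% for Apod, 57.2% for Apoe, 58.8% for Soat1, 61.6% for Abca1 and 67.2% for Lrp1. It did not follow the direction of the diet difference, as Soat1 lay between Apoe and Lrp1. The GC content of all windows is not given here.

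Apoe (chr7:19696109-19699188, minus strand, GRCm38) encodes the main apolipoprotein of brain lipoproteins. In the 24 Aw mice its lowest, median and highest values were 14.57, 14.93 and 15.99, and in the 21 A+ mice 14.89, 15.38 and 15.93. The ranges overlapped, but 20 of the 21 A+ mice lay above the Aw median and 9 of the 24 Aw mice below the lowest A+ mouse. Group by group, AwTw mice had 14.57, 14.83 and 15.26 when fed STD and 14.87, 15.44 and 15.99 when fed TWD (lowest, median and highest of 6). AwT+ mice had 14.77, 14.83 and 15.18 on STD and 14.75, 15.05 and 15.58 on TWD. Both Aw genotypes thus had lower medians on STD. The 5 A+Tw mice on STD had 14.95, 15.04, 15.07, 15.52 and 15.72, and the 6 on TWD 15.12, 15.48 and 15.64. The 4 A+T+ mice on STD had 15.04, 15.32, 15.49 and 15.61, and the 6 on TWD 14.89, 15.27 and 15.93. All 9 A+ mice on STD were above the median of the 12 Aw mice on STD, and 5 were above the highest of them, whereas on TWD no A+ mouse exceeded the highest Aw mouse.

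The A+ minus Aw difference of Apoe was 0.30 ± 0.088 (SE; adjusted p = 0.0411). Within the strata it was 0.38 in Tw mice on STD, 0.48 in T+ mice on STD, 0.083 in Tw mice on TWD and 0.26 in T+ mice on TWD, and the difference between the diets was not past the threshold (A+ by diet, -0.26 ± 0.18 (SE; adjusted p = 0.917)). In batch 0 alone the A+ difference was 0.14 (adjusted p = 0.748) and in batch 1 alone 0.42 (adjusted p = 0.116). The call was lost on leaving out any of 24 of the 45 mice in turn, with adjusted p up to 0.0882 without replicate 2 of A+T+/STD (difference 0.28). The TWD minus STD difference of Apoe was 0.24 ± 0.088 (SE; adjusted p = 0.0391). It was 0.019 in batch 0 alone (adjusted p = 0.973) and 0.45 in batch 1 alone (adjusted p = 0.0176), -0.0073 with the between-mouse score as a covariate, and 0.081 after quantile normalization (adjusted p = 0.212). It was lost on leaving out any of 16 mice, with adjusted p up to 0.0775 without replicate 3 of AwTw/TWD (difference 0.20).

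Clu (chr14:65968483-65981547, plus strand) encodes clusterin, a secreted chaperone of lipoprotein particles also known as apolipoprotein J. Its lowest, median and highest values were 13.65, 14.10 and 14.83 in Aw and 13.94, 14.38 and 14.73 in A+ mice. On STD all 9 A+ mice were above the median of the Aw mice and 4 were above all 12 of them. AwTw mice had 13.65, 13.86 and 14.33 on STD and 13.95, 14.27 and 14.83 on TWD, and AwT+ mice 13.96, 14.05 and 14.20 and 13.92, 14.17 and 14.32. AwTw/STD was the lowest group and AwT+/STD the narrowest, with an SD of 0.091. A+Tw mice had 14.04, 14.05, 14.09, 14.58 and 14.70 on STD (5 mice) and 14.10, 14.42 and 14.59 on TWD. A+T+ mice had 14.21, 14.25, 14.54 and 14.56 on STD (4 mice) and 13.94, 14.37 and 14.73 on TWD. The A+ minus Aw difference was 0.25 ± 0.071 (SE; adjusted p = 0.0340). It was 0.049 in batch 0 alone (adjusted p = 0.894) and 0.42 in batch 1 alone (adjusted p = 0.0203). Leaving out any of 13 mice lifted the adjusted p to 0.05 or more, up to 0.0718 without replicate 5 of A+Tw/STD (difference 0.23). For diet, Clu gave 0.14 ± 0.071 (SE; adjusted p = 0.128), which did not pass over both batches, and 0.30 in batch 1 alone (adjusted p = 0.0188) against -0.0092 in batch 0 alone (adjusted p = 0.983).

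Apod (chr16:31296192-31314808, minus strand) encodes a lipocalin that carries small lipids and is made by glia and by cells of vessels and meninges. Its lowest, median and highest values were 11.01, 11.82 and 12.84 in the 21 STD mice and 11.41, 12.24 and 12.84 in the 24 TWD mice, and 19 of the 24 TWD mice lay above the STD median. AwTw mice had 11.01, 11.79 and 12.03 on STD and 11.41, 12.38 and 12.84 on TWD, and AwT+ mice 11.10, 11.59 and 12.26 and 11.53, 12.24 and 12.61. A+Tw mice had 11.40, 11.46, 11.71, 12.02 and 12.11 on STD and 11.68, 12.25 and 12.48 on TWD. The group medians of these 3 genotypes were all higher on TWD. In A+T+ mice the order was turned, with 12.02, 12.12, 12.42 and 12.84 on STD and 11.46, 12.18 and 12.59 on TWD. The TWD minus STD difference was 0.38 ± 0.12 (SE; adjusted p = 0.0221), and its call held on leaving out each mouse in turn (0.35 to 0.44). The difference was 0.085 in batch 0 alone (adjusted p = 0.930) and 0.62 in batch 1 alone (adjusted p = 0.0176). For A+, Apod gave 0.20 ± 0.12 (SE; adjusted p = 0.423), which did not pass. A+T+/STD had the highest group median for the markers of meningeal fibroblasts and of choroid plexus. The mean level of the 8 fibroblast markers was 8.18 to 8.82 in its mice, against 6.96 to 8.88 over the other groups, that of the 10 choroid plexus markers was 9.26 to 10.04, against 5.81 to 10.30, and their part in the Apod values was not tested.

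**Figure D2:**
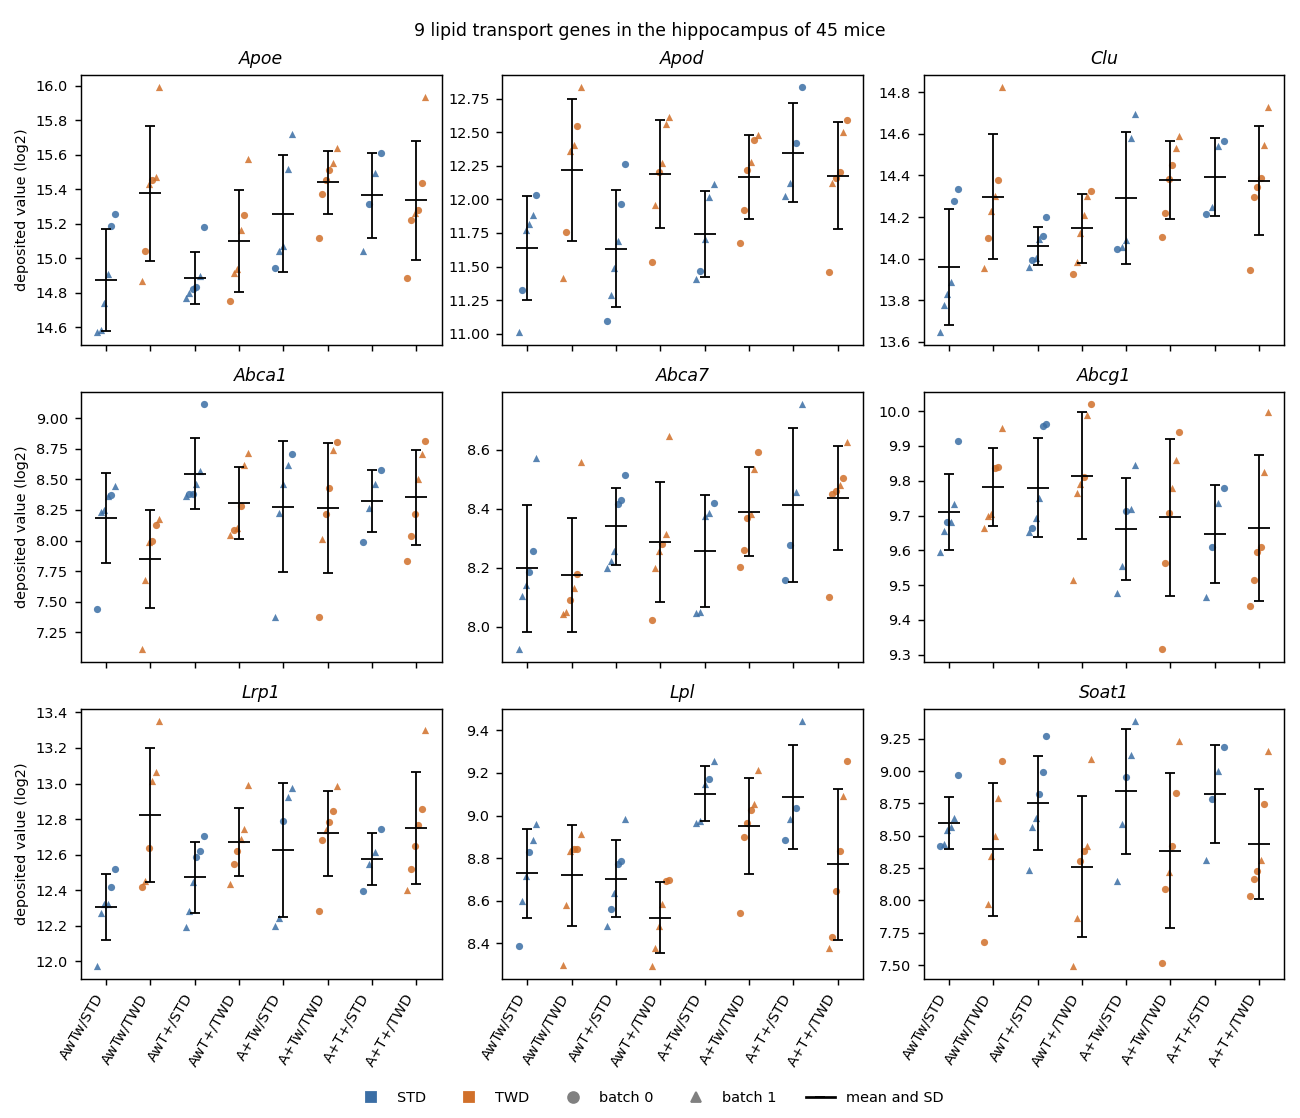
Deposited log2 values of the 9 genes (y axis) in each mouse by genotype and diet (x axis), with STD in blue and TWD in orange, batch 0 as circles and batch 1 as triangles, and the mean and SD of each group in black. Apoe is lowest in the STD groups of Aw mice (means 14.88 and 14.88) and Lpl highest in the STD groups of A+ mice (9.10 and 9.09).

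Lpl (chr8:68880491-68907448, plus strand), which encodes the lipase that frees fatty acids from triglyceride-rich lipoproteins, had the smallest adjusted p of the 9 genes for A+. Its lowest, median and highest values were 8.29, 8.69 and 8.98 in Aw and 8.38, 8.98 and 9.44 in A+ mice, and 10 of the 21 A+ mice lay above every Aw mouse. A+Tw mice had 8.96, 8.97, 9.15, 9.17 and 9.26 on STD and 8.54, 8.996 and 9.21 on TWD. A+T+ mice had 8.89, 8.98, 9.04 and 9.44 when fed STD and 8.38, 8.74 and 9.25 when fed TWD. Among Aw mice, AwTw had 8.39, 8.77 and 8.96 on STD and 8.30, 8.84 and 8.92 on TWD, and AwT+ had 8.48, 8.71 and 8.98 and 8.29, 8.53 and 8.70. On STD the lowest A+ mouse was thus above 10 of the 12 Aw mice. The A+ minus Aw difference was 0.31 ± 0.070 (SE; adjusted p = 0.00364), and it was positive in all 4 strata, from 0.23 in Tw mice on TWD to 0.38 in T+ mice on STD. It remained past the threshold on leaving out each mouse in turn (0.28 to 0.34). In batch 0 alone it was 0.23 (adjusted p = 0.606) and in batch 1 alone 0.40 (adjusted p = 0.0406). For diet, Lpl gave -0.16 ± 0.069 (SE; adjusted p = 0.0793), which did not pass.

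Lrp1 (chr10:127538161-127621148, minus strand) encodes a large endocytic receptor for ApoE particles and many other ligands. Its lowest, median and highest values were 11.97, 12.44 and 12.97 on STD and 12.28, 12.71 and 13.35 on TWD, and 6 TWD mice lay above all STD mice. AwTw mice had 11.97, 12.32 and 12.52 on STD and 12.42, 12.83 and 13.35 on TWD, and AwT+ mice 12.19, 12.51 and 12.71 and 12.44, 12.66 and 12.99. In AwTw, 4 of the 6 TWD mice lay above every STD mouse. A+Tw mice had 12.20, 12.24, 12.79, 12.92 and 12.97 on STD and 12.28, 12.76 and 12.99 on TWD, and A+T+ mice 12.39, 12.55, 12.61 and 12.74 and 12.40, 12.71 and 13.30, so that the A+ groups overlapped widely. The TWD minus STD difference was 0.26 ± 0.081 (SE; adjusted p = 0.0211) and held on leaving out each mouse in turn (0.22 to 0.28). It was 0.014 in batch 0 alone (adjusted p = 0.973) and 0.47 in batch 1 alone (adjusted p = 0.0176). For A+ it was 0.10 ± 0.081 (SE; adjusted p = 0.536).

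Soat1 (chr1:156424525-156474331, minus strand) encodes the enzyme that esterifies cholesterol for storage. It was the only one of the 9 genes past the threshold in the negative direction. Its lowest, median and highest values were 8.15, 8.64 and 9.39 on STD and 7.49, 8.33 and 9.23 on TWD, and 17 of the 24 TWD mice lay below the STD median. On STD, AwTw mice had 8.42, 8.56 and 8.97 and AwT+ mice 8.23, 8.73 and 9.27. On TWD, AwTw mice had 7.68, 8.42 and 9.08 and AwT+ mice 7.49, 8.34 and 9.10. The spread was wider on TWD in both genotypes. A+Tw mice had 8.15, 8.59, 8.95, 9.12 and 9.39 on STD and 7.52, 8.32 and 9.23 on TWD, and A+T+ mice 8.31, 8.78, 8.998 and 9.19 and 8.03, 8.27 and 9.15. The TWD minus STD difference was -0.38 ± 0.13 (SE; adjusted p = 0.0282), and was negative in each genotype, from -0.49 in AwT+ to -0.20 in AwTw. Unlike the 3 genes that were higher on TWD, Soat1 had its larger difference in batch 0, at -0.61 (adjusted p = 0.820), against -0.13 in batch 1 (adjusted p = 0.554). The call was lost without replicate 3 of AwT+/TWD (difference -0.34, adjusted p = 0.0558).

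The 3 exporters passed in neither comparison. Abca1 (chr4:53030787-53159895, minus strand) loads cholesterol onto apolipoproteins, Abcg1 (chr17:31057675-31117988, plus strand) adds more to formed particles, and Abca7 (chr10:79996494-80015572, plus strand) moves phospholipid and is linked to phagocytosis. Of these, Abca1 varied most, with a lowest, median and highest value of 7.11, 8.28 and 9.12 over the 45 mice, and gave 0.090 ± 0.12 (SE; adjusted p = 0.723) for A+ and -0.15 ± 0.12 (SE; adjusted p = 0.311) for TWD. Its lowest group was AwTw/TWD (7.11, 7.99 and 8.18) and its highest AwT+/STD (8.37, 8.42 and 9.12). Abca7 ran from 7.92, 8.28 and 8.75 and Abcg1 from 9.32, 9.71 and 10.02 as lowest, median and highest. Abca7 gave 0.13 ± 0.060 (SE; adjusted p = 0.284) for A+ and 0.022 ± 0.058 (SE; adjusted p = 0.793) for TWD. Abcg1 gave -0.11 ± 0.053 (SE; adjusted p = 0.331) for A+, the only negative A+ difference among the 9, and 0.024 in batch 1 alone. Its TWD difference was 0.039 ± 0.051 (SE; adjusted p = 0.559). The 95% intervals left room for an A+ difference of up to 0.33 for Abca1, 0.25 for Abca7 and 0.21 in the negative direction for Abcg1.

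Ordering the 8 groups by their mean, few neighbouring groups stood apart. Of the 63 steps between neighbours, over 9 genes, 4 were larger than the smaller SD of the groups on either side. They were AwT+/TWD over AwT+/STD for Apoe (0.21), A+Tw/TWD over A+Tw/STD for Apod (0.43), AwT+/STD over AwTw/STD for Clu (0.10) and AwT+/STD over AwT+/TWD for Lpl (0.18).

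Setting each transgenic genotype against AwTw on the same diet asked whether any gene moved in a single genotype. None of the 9 genes passed in any of these 6 comparisons. On STD the differences of A+Tw ran from -0.046 (Abcg1) to 0.38 (Apoe), and 3 of the 9 genes, Apoe, Clu and Lpl, had an unadjusted p below 0.05 in limma, as did 5.66% of all genes, of which 0.925% passed after adjustment. A+T+ on STD ran from -0.064 to 0.72, with 4 genes below 0.05 unadjusted (Apod 0.72, Apoe 0.50, Clu 0.44 and Lpl 0.36), as were 14.3% of all genes, and 1.32% of all genes passed after adjustment. On TWD the same genotypes gave smaller values for the apolipoproteins. A+Tw on TWD ran from -0.095 to 0.43, with 1 gene below 0.05 unadjusted (Abca7), against 5.2% of all genes unadjusted and 0.824% after adjustment. A+T+ on TWD ran from -0.12 to 0.52, with 2 genes below 0.05 unadjusted (Abca1 and Abca7), against 7.76% of all genes unadjusted and 0.73% after adjustment. These comparisons share the AwTw mice of each diet, in which Apoe was 0.50 higher on TWD. AwT+ differed from AwTw by -0.023 to 0.37 on STD, with none of the 9 genes below 0.05 unadjusted, and by -0.28 to 0.46 on TWD, with 1 (Abca1), against 2.39% and 3.04% of all genes unadjusted, and 0% of all genes passed after adjustment on either diet. Over both diets, T+ against Tw mice gave -0.10 to 0.25, with 0 of 9 genes past the threshold in limma, and 2 below 0.05 unadjusted (Abca1 and Abca7), against 5.15% of all genes unadjusted and 0.0189% after adjustment.

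**Figure D3:**
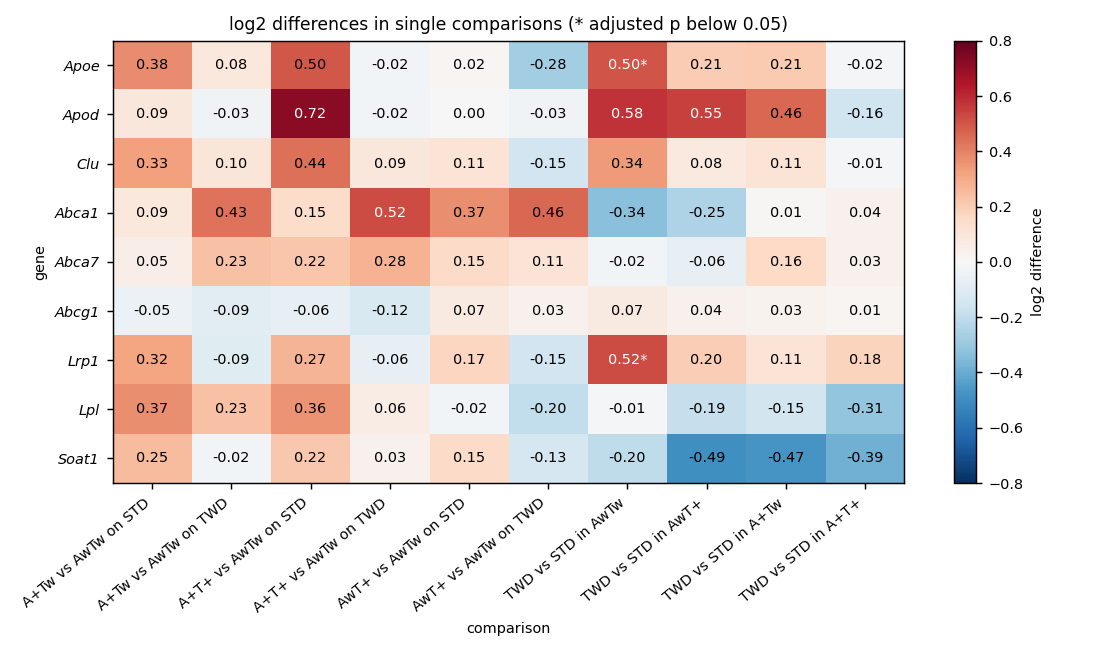
Log2 differences of the 9 genes (rows) in 10 single comparisons (columns), with red for higher and blue for lower and a star where the adjusted p was below 0.05. Only Apoe and Lrp1 in the comparison of TWD with STD in AwTw mice are starred, at 0.50 and 0.52.

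Within single genotypes, TWD was past the threshold for 2 of the 9 genes in AwTw mice, Apoe at 0.50 ± 0.17 (SE; adjusted p = 0.0498) and Lrp1 at 0.52 ± 0.15 (SE; adjusted p = 0.0498), where 9.35% of all genes passed. Apod (0.58, adjusted p = 0.0634) and Clu (0.34, adjusted p = 0.0683) did not pass. Both calls stood at the threshold and were lost on leaving out any of 32 of the 45 mice, with the largest drop without replicate 3 of AwTw/TWD (Apoe 0.38, Lrp1 0.41). Of the 32, 4 were AwTw/STD and 4 AwTw/TWD mice, and the rest were of genotypes outside the comparison. Leaving out a mouse also shifts the adjustment over all genes, so the losses are not particular to these 2 genes. In each transgenic genotype 0 of the 9 genes passed in limma, as did 0% of all genes, and the genes with an unadjusted p below 0.05 were Apod in AwT+ at 0.55 and Lpl in A+T+ at -0.31, against 7.44% (AwT+), 4.43% (A+Tw) and 2.57% (A+T+) of all genes. Whether these diet differences differed between genotypes was tested by interactions. None of the 9 genes passed in any of 6 interactions, and 0% of all genes did in each. The smallest unadjusted p values were those of Apod (-0.74, unadjusted p = 0.0349, adjusted p = 0.560) and Apoe (-0.52, unadjusted p = 0.0442, adjusted p = 0.560), for the diet difference in A+T+ minus that in AwTw mice, and only these 2 were below 0.05 unadjusted, as were 6.3% of all genes in that interaction.

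The diet differences were unequal in size between the batches, which the labels give only as a number. On STD there were 8 mice of batch 0 and 13 of batch 1, and on TWD 12 of each, with only 1 of the 5 A+Tw/STD mice in batch 0. The between-mouse score moved with diet in batch 1, at 0.66 ± 0.99 (SD, n = 13) on STD and -0.72 ± 1.23 (n = 12) on TWD. In batch 0 it was 0.11 ± 0.40 (n = 8) on STD and -0.073 ± 0.48 (n = 12) on TWD. A term for the difference between batches in the diet effect was positive for Lrp1 (0.47, unadjusted p = 0.00401), Apoe (0.46, 0.0106), Clu (0.35, 0.0152), Apod (0.53, 0.0330) and Soat1 (0.53, 0.0492), all unadjusted p from limma, and passed for none after adjustment (adjusted p from 0.125 to 0.177 for these 5). Over all genes 28% were below 0.05 unadjusted for this term and 0 passed after adjustment. For the A+ effect the same term was below 0.05 unadjusted for Clu (0.38, unadjusted p = 0.00993) and Abcg1 (0.27, unadjusted p = 0.0134), as for 1659 of all 15897 genes, and again 0 genes passed after adjustment in limma. With the between-mouse score as a covariate the diet difference was 0.14 for Apod, 0.056 for Lrp1 and -0.25 for Soat1, and none passed. The A+ differences of Apoe (0.19, adjusted p = 0.000878), Clu (0.17, adjusted p = 0.00609) and Lpl (0.35, adjusted p = 0.000183) passed under the same covariate. The score is made from the same values and can differ between diets, so it is not independent of the difference it was added to.

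**Figure D4:**
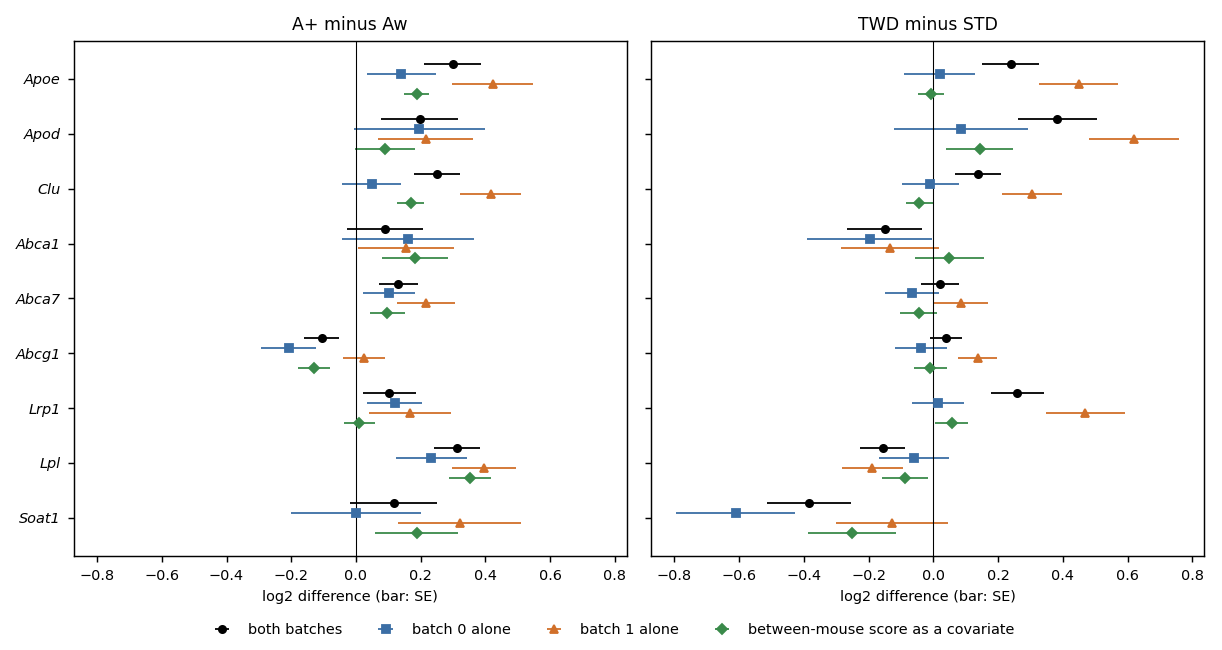
Log2 differences with SE (x axis) of the 9 genes for A+ against Aw on the left and TWD against STD on the right, from all mice (black circles), batch 0 alone (blue squares), batch 1 alone (orange triangles) and all mice with the between-mouse score as a covariate (green diamonds). For diet, the orange triangles of Apoe, Apod and Lrp1 (0.45, 0.62 and 0.47) stand to the right of the blue squares (0.019, 0.085 and 0.014).

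The pathway around the 9 genes was read from 5 lists of 111 further genes, of which 97 are in the table. For A+, 6 of the 97 were higher and none lower, which is 6.19%, against 3.77% of all genes. Among 15 lipoprotein components and remodelling genes 3 were higher: Apobec1, which edits Apob mRNA (0.50 ± 0.11, adjusted p = 0.00147), the apolipoprotein gene Apoc4 (0.35 ± 0.086, adjusted p = 0.0102) and the apolipoprotein B receptor Apobr (0.34 ± 0.088, adjusted p = 0.0148). Of 25 genes of sterol storage, lysosomal release and carriers 2 passed: Npc2, which moves cholesterol out of lysosomes (0.57 ± 0.086, adjusted p = 7.37e-06), and the lipid droplet coat gene Plin2 (0.27 ± 0.080, adjusted p = 0.0406). Of 21 LXR, SREBP and oxysterol genes Ch25h, which makes 25-hydroxycholesterol in myeloid cells, passed (0.61 ± 0.070, adjusted p = 1.29e-08). None of 17 further ABC lipid transporter genes and none of the 19 lipoprotein receptor genes reported here passed in limma. The list medians lay between -0.027 and 0.055. Over all 45 mice, the 6 genes had means of 5.26 (Apoc4), 5.32 (Ch25h), 5.96 (Apobr), 6.19 (Apobec1), 7.17 (Plin2) and 10.18 (Npc2). The median of a mouse lay between 8.05 and 8.31, so all but Npc2 were below it. The lowest Apoc4 value was the same in AwTw/STD and AwTw/TWD, at 4.55496. Without counts it cannot be told whether these mice had any reads of Apoc4.

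For diet, 31 of the 97 pathway genes passed, 13 higher and 18 lower. This is 32%, close to the 29.4% of all genes, and the list counts that follow, from 17.6% to 40% of a list, are a description of these genes and not a result about the pathway. Receptor genes gave 2 higher and 5 lower of 19, led by Vldlr, a receptor for ApoE and reelin (-0.50 ± 0.13, adjusted p = 0.0157), Scarb2 (-0.38 ± 0.11, adjusted p = 0.0180), Lrp12 (-0.38 ± 0.11, adjusted p = 0.0183) and Lrp6 (-0.36 ± 0.12, adjusted p = 0.0252). The ABC transporters gave 0 higher and 3 lower of 17, Abca5 (-0.59 ± 0.18, adjusted p = 0.0192), the peroxisomal Abcd3 (-0.23 ± 0.076, adjusted p = 0.0266) and Abca8b (-0.37 ± 0.14, adjusted p = 0.0381). The 2 receptor list genes that were higher were Lrp3 (0.19) and Lrpap1 (0.21), named after their values were seen. Sterol storage and carrier genes gave 6 higher and 4 lower of 25, led by the sterol carrier Stard4 (-0.33 ± 0.085, adjusted p = 0.0157), the triglyceride-forming Dgat2 (0.26 ± 0.067, adjusted p = 0.0157), Stard3 (0.21 ± 0.063, adjusted p = 0.0185) and the cholesteryl ester hydrolase Nceh1 (-0.25 ± 0.076, adjusted p = 0.0192). LXR, SREBP and oxysterol genes gave 3 higher and 4 lower of 21, among them Pparg (-0.21 ± 0.060, adjusted p = 0.0172), the desaturase Scd2 (-0.23 ± 0.074, adjusted p = 0.0233), Rxrb (0.19 ± 0.064, adjusted p = 0.0290) and the SREBP regulator Insig1 (-0.25 ± 0.086, adjusted p = 0.0311). The list of lipoprotein components and remodelling genes gave 2 higher and 2 lower of 15, Lmf2 (0.28 ± 0.090, adjusted p = 0.0239), Angptl4 (0.29 ± 0.10, adjusted p = 0.0305), Apold1 (-0.23 ± 0.079, adjusted p = 0.0307) and Sgms1 (-0.23 ± 0.082, adjusted p = 0.0334). With the between-mouse score as a covariate 0 of the 97 genes passed in limma, and the share of all genes that passed in that setting is not given here.

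**Figure D5:**
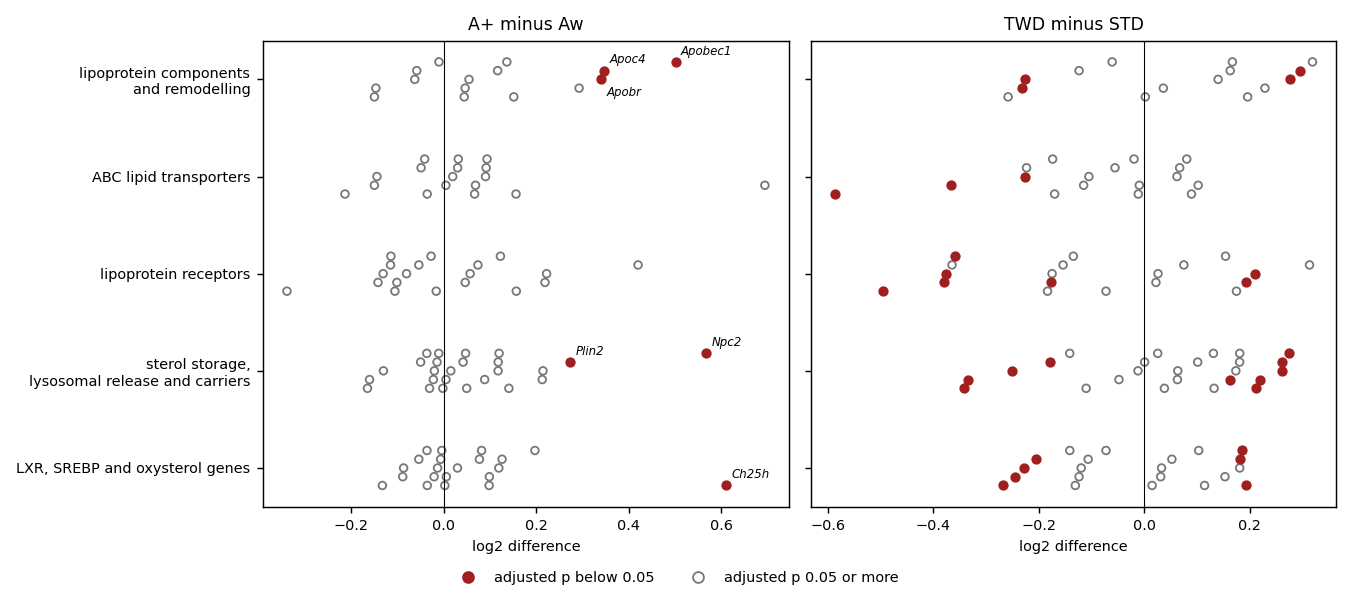
Log2 differences (x axis) of the genes of 5 lipid pathway lists (rows), each point a gene, for A+ against Aw on the left and TWD against STD on the right, filled where the adjusted p was below 0.05. On the left the 6 filled points, which are named, lie to the right of 0, and on the right 13 filled points lie above and 18 below 0.

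Markers of cell types were read in the same comparisons. Only microglia, astrocytes and choroid plexus are described here, so a difference is not shown to be particular to 1 cell type. Of 12 microglial markers 10 were higher in A+ mice (median difference 1.03), where 3.77% of all genes passed. They were led by Trem2 (1.82 ± 0.099, adjusted p = 4.29e-18). The mean level of the 12 was 8.77 to 9.64 over the Aw mice and 9.67 to 10.51 over the A+ mice. The lowest value of a microglial marker in any mouse was 6.30. On this transformed scale a gene without reads need not lie at 0. Among 10 astrocyte markers Gfap alone passed (1.44 ± 0.062, adjusted p = 2.1e-21), with a list median of -0.0085. On TWD 7 of the microglial markers were higher and 1 lower (median 0.32), where 29.4% of all genes passed. Whether these markers passed in single batches, with the between-mouse score or without the 2 mice of lowest score is not given here. The 10 choroid plexus markers passed in neither comparison in limma, but their mean level ran from 5.81 to 10.30 between mice, with list medians of 0.81 for A+ and -0.52 for TWD. The part of these cells in the values of Apoe, Clu, Lpl and Apod was not tested. In such tissue homogenates fewer cells of a type and less RNA per cell cannot be told apart.

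Within groups, mice that had more of one apolipoprotein tended to have more of the others. Over the residuals of the 8-group fit in 45 mice, Pearson's r was 0.89 for Apoe with Clu, 0.74 for Apoe with Apod, 0.72 for Apoe with Lrp1 and 0.63 for Clu with Apod. Abca1 and Soat1 went together (0.65), as did Abca1 and Lpl (0.50) and Lpl and Soat1 (0.47), and these 3 ran against Apoe (-0.55 for Abca1, -0.42 for Lpl and -0.33 for Soat1). Soat1 with Clu was weaker, at -0.17. Abca7 had r of 0.43 with Apoe, 0.41 with Clu and 0.47 with Lrp1, and Abcg1 had 0.51 with Clu. All of these values share the libraries and the between-mouse score. The score had r of -0.78 with the residuals of Apoe, -0.72 with Clu, -0.71 with Lrp1, -0.55 with Apod and 0.47 with Abca1. As the score was not taken from residuals, its r values are not purely within groups. The mean of the microglial markers had r of 0.77 with Clu and 0.75 with Apoe, and -0.13 with Lpl. The mean of the hippocampal principal cell markers had r of -0.73 with Apod, -0.55 with Abca7, -0.54 with Lrp1 and -0.53 with Apoe, and 0.61 with Lpl. Apod also followed the fibroblast markers (0.57) and the choroid plexus markers (0.52), and Abca7 the choroid plexus markers (0.56). Abcg1 followed several lists, with oligodendrocyte precursors at 0.65, astrocytes 0.63, neurons 0.52, endothelial and mural cells 0.42 and microglia 0.41. Astrocyte markers had r of 0.55 with Soat1 and 0.52 with Abca1, but -0.067 with Apoe. Apoe had 0.50 with the blood markers.

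The genes most like each of the 9, by the same residual r over 45 mice, were mostly not lipid genes. For Apoe they were Ctsa (0.95), Ftl1 (0.94) and Nt5dc2 (0.93), for Clu Lamp1 (0.92), Cd81 (0.92) and Ttyh2 (0.92), and for Apod Ifitm3 (0.91), Gsn (0.88) and Fcgrt (0.88). Ctsa and Lamp1 encode lysosomal proteins and Ftl1 the ferritin light chain. For Lrp1 they were Arhgap23 (0.88), Cul7 (0.87) and Sptan1 (0.87). For Abca1 they were Xylt1 (0.83), Slc38a1 (0.82) and Nrxn3 (0.82), for Abca7 Pxn (0.74), 2410004P03Rik (0.73) and Ltbp3 (0.72), and for Abcg1 Myrf (0.80), Sema6a (0.79) and Nfic (0.79). Myrf is a transcription factor of oligodendrocytes. For Lpl they were Cdh11 (0.78), the neuropeptide receptor gene Npy2r (0.77) and St6galnac5 (0.74), and for Soat1 Dcaf12l1 (0.72), Ctnna2 (0.71) and Sertad2 (0.71).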

How the data were processed

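RNA was sequenced from the hippocampus of 45 mice, as stranded poly(A) libraries in 1 pool. According to the methods and processing notes, the authors trimmed reads with Trimmomatic 0.38, quantified them with kallisto 0.44.0, kept genes with a mean count above 10, applied the variance-stabilising transformation of DESeq2 1.22.2, giving log2 values, and removed the batch difference with limma 3.38.3. The deposited log2 values have equal batch means for every gene, so depth, counts and an original batch difference can no longer be seen, and a removal made without the groups can also take away part of a group difference where groups and batches are unequal. Gene positions are GRCm38 with GENCODE M21.

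Here, limma 3.58.1 (R 4.3.3) was fitted to all 15897 genes with batch as a covariate and empirical Bayes moderation that follows the mean level. It was first run on simulated data with independent noise for each gene and mouse. Such data lack the pattern shared by genes in the real residuals, so they cannot show how reliable the calls are. The 9 genes, the gene lists, the tests and the alternatives were chosen with earlier results of these data known. Named genes are all 9 genes, up to 4 called genes per pathway list with the smallest adjusted p, marker genes of the checks, and the 3 genes most like each of the 9. Python 3.11.15 made the summaries. Alternatives were single batches, no batch covariate, only the groups compared, no mean trend, a filter at the 25th percentile of mean value, quantile normalization, repeated genes counted once, the between-mouse score as a covariate and each mouse left out. The run without the 2 mice and the batch difference term were chosen after seeing the data. No other sample columns were found. One gene of the lipoprotein receptor list is not reported here.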

Additional observations from a re-analysis of the deposited data

Results flagged for a closer look

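In 5 of the 72 combinations of gene and group, 1 mouse stood apart from the others of its group, by a gap that was a large part of the group's range (Dixon's test at the 95% level), where chance gives about 1 in 20. One AwT+/STD mouse had Apoe at 15.18, above the next at 14.90. One AwTw/STD mouse had Abca1 at 7.44, below the next at 8.23, and one AwT+/STD mouse had Abca1 at 9.12, above the next at 8.57. For Abca7, one AwTw/TWD mouse, which also had the second lowest between-mouse score, had 8.56, above the next at 8.18, and one A+T+/TWD mouse had 8.10, below the next at 8.45.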

How the results depend on the processing

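Among the A+ calls, Lpl passed in every alternative but batch 0 alone. Of the 9 genes, the 3 called for A+ became 0 in batch 0 alone and 1 to 3 with 1 mouse left out. Apoe was also lost with the filter at the 25th percentile (adjusted p = 0.0505) and in batch 1 alone (0.116), both limma. The 2 called for TWD in AwTw mice became 0 in batch 0 alone, with only the groups compared in the fit, with no mean trend, with quantile normalization, with the between-mouse score as a covariate and without the 2 mice of lowest score, and 0 to 4 with 1 mouse left out. The 4 called for TWD over all genotypes became 0 in batch 0 alone, with the score as a covariate and without the 2 mice, and 2 to 5 with 1 mouse left out (2 without replicate 3 of AwT+/TWD). Apoe turned from 0.24 to -0.0073 with the score as a covariate, and was lost with quantile normalization (0.081, adjusted p = 0.212 in limma). Batch 1 alone lost Soat1 and gained Clu. Quantile normalization called 1 gene for A+T+ against AwTw on STD, where none was called otherwise. Of the pathway genes, the 6 called for A+ became 1 in batch 0, 3 in batch 1, 2 with the filter at the 25th percentile and 10 with the score. The 31 called for TWD became 0 in batch 0, with the score and without the 2 mice, and 15 to 40 with 1 mouse left out, the lowest without replicate 3 of AwTw/TWD. Of the 27 most alike genes, 9 were also among the first 3 by Spearman's rho. The causes were not tested. Single batches hold fewer mice, down to 1 in a group. The shares of all genes that passed under the alternatives are not given here, so lost calls are not a result about these genes. Without counts, depth cannot be used to judge low genes. No paired analysis was possible because each mouse is a separate animal and replicate numbers follow the sample order only.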

Other observations

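Of 9 genes that lie next to Apoe on its chromosome, 7 are in the table. In A+ mice Apoc4, also counted among the pathway genes and low in level (mean 5.26 over all mice), was higher (0.35 ± 0.086, SE, adjusted p = 0.0102). This is 14.3% of the 7, against 3.77% of all genes. Apoc4 had the same lowest value, 4.55496, in both AwTw groups, where it may have had no reads. The other 6 did not pass in limma. All 7 differences were positive (median 0.12, against -0.017 over all genes). On TWD Tomm40 (0.31, adjusted p = 0.0196) and Bcam (0.42, adjusted p = 0.0426) were higher, which is 28.6% of the 7, against 29.4% of all genes. Again all 7 differences were positive (median 0.15, against -0.0014 over all genes). The share of positive differences over all genes was not counted.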
